A study of Mus musculus with 13 samples.

Results

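The 9 genes followed here encode subunits of the ionotropic glutamate receptors, and their levels were read across the cell types of the mouse hippocampus. Gria1, Gria2, Gria3 and Gria4 encode the subunits of AMPA receptors, and Grin1, Grin2a, Grin2b, Grin2c and Grin3a encode subunits of NMDA receptors. They were taken by symbol from the gene list of the deposited matrices, where all 9 were found among 32285 genes. Single-nucleus RNA sequencing had been run on whole frozen hippocampus of female mice, given as the C3B6F1 hybrid in the study's design and as C3HB6F1 in the strain labels. Of the 13 libraries, 3 came from young mice of 5 months fed ad libitum (AL), 3 from old mice of 24 months fed ad libitum, 3 from old mice of 24 months restricted from 20 months of age (acute dietary restriction, DR) and 4 from old mice of 24 months restricted from 5 months (long-term dietary restriction). The old AL libraries carry the numbers 1, 2 and 4. The amount of food given is not given in the sources used here. Each library was read as 1 mouse. The labels number the samples without saying that each is a separate animal, so p-values measure the spread between these samples.

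AMPA receptors are assemblies of 4 subunits that carry the fast part of excitatory transmission. NMDA receptors need both glutamate and a co-agonist to open, are blocked by magnesium at rest and admit calcium, which makes them central to synaptic plasticity in the hippocampus. Every NMDA receptor holds the obligatory subunit encoded by Grin1, while the Grin2 and Grin3 genes supply the partners that set gating, conductance and magnesium block. In the AMPA family the subunit encoded by Gria2 decides calcium entry: in its pore loop a glutamine codon is edited in the RNA to arginine, at the position called the Q/R site, and receptors that hold the edited subunit pass little calcium.

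The stretch around the Q/R codon shows how alike the 4 AMPA genes are at the place where they differ in function. It was read from the GENCODE transcripts, 30 bases on each side of the codon, which stands in capitals.
Gria1: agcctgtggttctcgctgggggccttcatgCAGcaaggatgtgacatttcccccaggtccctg
Gria2: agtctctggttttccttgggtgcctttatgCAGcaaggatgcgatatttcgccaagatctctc
Gria3: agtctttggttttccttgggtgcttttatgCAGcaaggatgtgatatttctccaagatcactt
Gria4: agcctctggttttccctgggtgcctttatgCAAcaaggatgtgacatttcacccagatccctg
All 4 codons encode glutamine. Gria1 to Gria3 carry the CAG codon and Gria4 the CAA codon. Over the 63 bases, Gria3 differed from Gria2 at 6, Gria4 at 9 and Gria1 at 14. Editing changes a base of the RNA and not the gene, and UMI counts per gene do not show it.

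On the GRCm38 (mm10) assembly the members lie on 8 chromosomes. Gria1 spans chr11:57011387-57330244 on the plus strand, Gria2 chr3:80681450-80802835 on the minus strand, Gria3 chrX:41400854-41678601 on the plus strand and Gria4 chr9:4417896-4796234 on the minus strand. Grin1 spans chr2:25291181-25319187, Grin2a chr16:9567898-9995560, Grin2b chr6:135713233-136173511, Grin2c chr11:115249169-115267243 and Grin3a chr4:49661611-49845744, all on the minus strand. Of the genes, 7 are long. Their spans run from 121.4 kb for Gria2 to 460.3 kb for Grin2b, against a median of 12.3 kb over all annotated features, while Grin1 (28.01 kb) and Grin2c (18.07 kb) are short. Grin1 overlaps the antisense gene Grin1os, Grin2b overlaps 3 counted genes on the opposite strand, and Grin3a holds Ppp3r2 on its own strand. Whether the counting used strand or intronic reads is not given in the sources used here, so these reads cannot be told apart.

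The libraries held 105759 barcodes and 742437104 unique molecular identifiers (UMIs, 1 per captured RNA molecule), with 38546292 to 80538090 UMIs per library. The 105427 barcodes that passed the filters were clustered without the 9 genes, and doublets were left out afterwards. Of the 98041 nuclei that remained, 78296 fell into 14 classes named from marker genes, each written as X-like. The other 19745 nuclei, in 15 clusters, stayed unnamed. The median UMIs per nucleus ran from 3801 in young AL 2 to 11375 in old AL 1, and 1351 of 104066 barcode sequences occurred in more than 1 library. Levels are given as CPM: the UMIs of a gene per 1000000 UMIs of the same class in the same mouse, for sums of at least 20 nuclei. In sums over nuclei, fewer nuclei of a kind within a class and less RNA per nucleus cannot be told apart.

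Across classes the AMPA genes fell into separate patterns. Gria1, whose subunit is a main carrier of activity-driven receptor insertion at hippocampal synapses, had its highest levels in neuronal classes. It held 4179 ± 493 CPM (SD, n = 13 mice) in CA1 pyramidal neuron-like nuclei, 3235 ± 438 (n = 13) in CA3 pyramidal neuron-like, 3136 ± 375 (n = 13) in granule neuron-like and 2866 ± 327 (n = 13) in inhibitory neuron-like nuclei. Border-associated macrophage-like nuclei held 1797 ± 677 CPM (n = 8), above Cajal-Retzius neuron-like nuclei on average (1624 ± 447, n = 7), and mural cell-like nuclei 1396 ± 626 (n = 8). These macrophage-like and mural cell-like nuclei carried neuronal RNA, as given below. Astrocyte-like nuclei held 303 CPM, oligodendrocyte precursor-like 154 and oligodendrocyte-like 127 on average. Gria2 was high in pyramidal nuclei too, at 2444 ± 148 CPM (n = 13) in CA1-like and 2442 ± 263 (n = 13) in CA3-like nuclei, and it was high in astrocyte-like and precursor-like nuclei as well. Astrocyte-like nuclei held 1559 ± 203 CPM and oligodendrocyte precursor-like nuclei 1310 ± 103 (both n = 13), while inhibitory neuron-like nuclei held 1040 ± 87.8 (n = 13). The range over mice in the inhibitory class, 883 to 1157 CPM, lay below that in astrocyte-like nuclei, 1221 to 1925.

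Among the named classes Gria3 was highest in CA1-like nuclei (1010 ± 98.8 CPM, n = 13) and granule-like nuclei (805 ± 59.6, n = 13). Of the unnamed clusters 4 had a higher mean, up to 1245 ± 127 CPM (n = 12) in cluster 9. Oligodendrocyte precursor-like nuclei, at 635 ± 81.4 CPM (n = 13), overlapped in range with inhibitory neuron-like nuclei (680 on average), and astrocyte-like nuclei held 56.2 CPM. Gria4, whose subunit gives fast-gating receptors in interneurons, had another order. Inhibitory neuron-like nuclei led the named classes with 1883 ± 284 CPM (n = 13), followed by oligodendrocyte precursor-like nuclei with 1193 ± 155 (n = 13), Cajal-Retzius neuron-like nuclei with 1172 ± 204 (n = 7) and hilar mossy cell-like nuclei with 708 ± 103 (n = 8). The unnamed clusters 25 (2031 ± 379 CPM, n = 7) and 32 (2098 in 1 mouse) had higher means. The granule-like and CA1-like nuclei, in which the other AMPA genes were high, held 153 ± 17.9 and 143 ± 49.2 CPM (both n = 13). Mature oligodendrocyte-like nuclei had a higher mean than both, at 273 ± 72.0 CPM (n = 13).

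**Figure D1:**
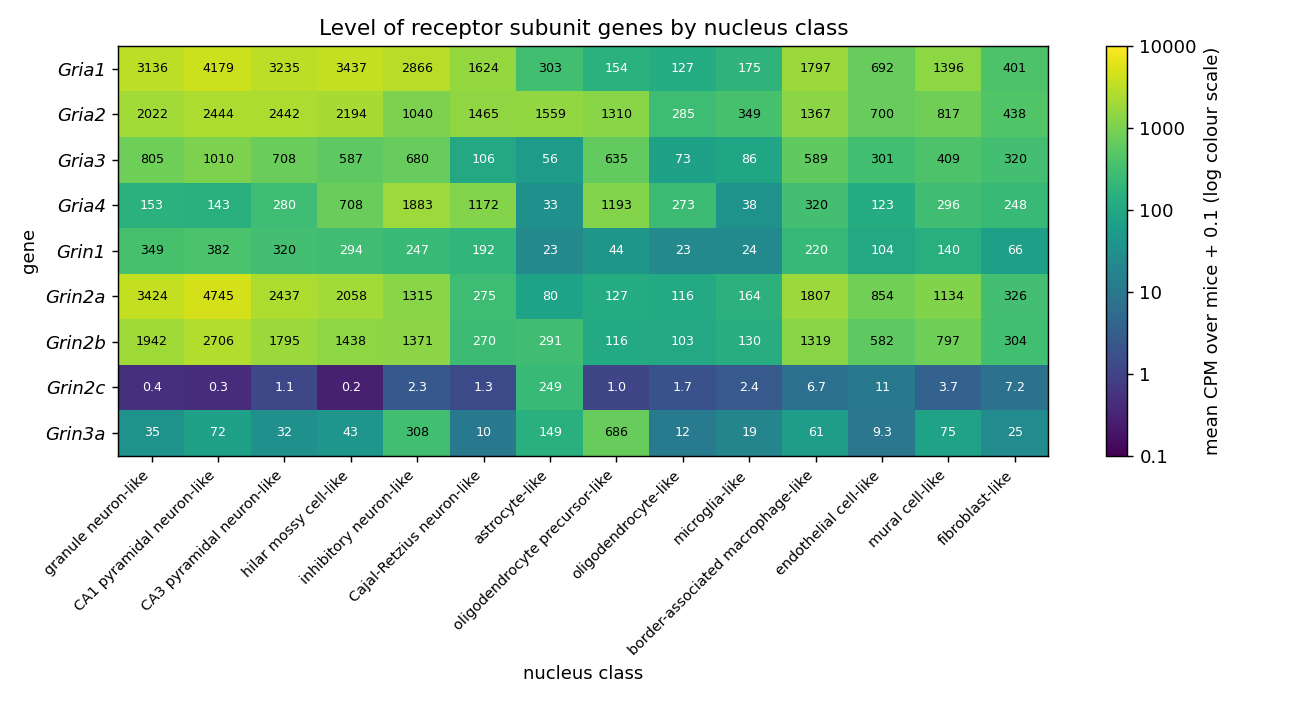
Mean level of the 9 genes (rows) in the 14 marker-named classes (columns), in CPM over mice, on a log colour scale with the mean printed in each cell. Gria1, Grin1, Grin2a and Grin2b are highest in the CA1-like column (4179, 382, 4745 and 2706), Gria2 extends into astrocyte-like and precursor-like nuclei, Grin2c stands out in astrocyte-like nuclei (249) and Grin3a in precursor-like nuclei (686).

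Of the NMDA genes, Grin1 had its highest levels in neuronal classes, with 382 ± 43.9 CPM in CA1-like, 349 ± 38.3 in granule-like and 247 ± 24.8 in inhibitory neuron-like nuclei (each n = 13), against 44.4 in oligodendrocyte precursor-like and 22.8 in astrocyte-like nuclei. Border-associated macrophage-like nuclei, which carried neuronal RNA, held 220 ± 55.9 CPM of Grin1 and 1807 ± 690 of Grin2a (n = 8). Grin2a, which supplies the fast-deactivating partner of mature synapses, reached 4745 ± 403 CPM in CA1-like nuclei and 3424 ± 290 in granule-like nuclei (each n = 13). Grin2b, the partner with slower deactivation, held 2706 ± 138 and 1942 ± 86.7 CPM in the same classes. In inhibitory neuron-like nuclei the means of the 2 genes differed by less than the SD of Grin2a, at 1315 ± 238 CPM for Grin2a and 1371 ± 82.9 for Grin2b (n = 13).

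Grin2c and Grin3a were the members whose highest level among the named classes lay outside neurons. Grin2c held 249 ± 38.6 CPM in astrocyte-like nuclei (n = 13, 162 to 309 CPM), and the next class, endothelial cell-like, held 10.6 ± 11.3 (n = 9). Neuronal classes ranged from 0.176 CPM in hilar mossy cell-like to 2.27 in inhibitory neuron-like nuclei. A UMI of Grin2c was seen in 47.3% of astrocyte-like nuclei at a median of 2704 UMIs per nucleus, and in 0.255% of granule-like nuclei at a median of 6376. With nuclei thinned to 1000 UMIs the shares were 21.2% and 0.0421%. Grin3a, whose subunit lowers calcium entry, held 686 ± 104 CPM in oligodendrocyte precursor-like nuclei, 308 ± 49.7 in inhibitory neuron-like and 149 ± 27.6 in astrocyte-like nuclei (each n = 13). The ranges of the first 3 classes did not overlap in the pairs of precursor-like with inhibitory (475 to 842 against 260 to 438 CPM) and inhibitory with astrocyte-like (103 to 223). Granule-like nuclei held 35.4 CPM. A UMI was found in 82.2%, 54.5%, 21.0% and 14.8% of precursor-like, inhibitory, astrocyte-like and granule-like nuclei, and with nuclei thinned in 50.5%, 22.7%, 11.4% and 3.38%.

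Few neighbours in these orders were separated by the spread over mice. Of the 13 steps between neighbouring classes in each order, none was free of overlap for Gria1, Gria2, Gria3 and Grin1, 1 was for Gria4, Grin2a, Grin2b and Grin2c, and 2 were for Grin3a. Classes were made by clustering the same nuclei, so the orders are a description without a test. Nuclei of the vascular and border classes carried neuronal RNA. The summed level of 10 neuronal genes, such as Snap25 and Syt1, was 73.8 to 112% of the granule-like level in border-associated macrophage-like nuclei, 29.5 to 73.5% in mural cell-like, 29.3 to 59.5% in endothelial cell-like and 20.8 to 90.3% in fibroblast-like nuclei. It was 12.4 to 18.9% in astrocyte-like, 13.5 to 23.4% in oligodendrocyte precursor-like, 12.3 to 25.8% in microglia-like and 5.41 to 14.5% in oligodendrocyte-like nuclei. The part of this RNA in the glial and vascular levels of Gria1, Grin1, Grin2a and Grin2b was not tested. Gria4 in oligodendrocyte-like nuclei stood at 109 to 277% of its granule-like level in the same mouse, and Gria1 at 0.865 to 6.38%. Granule-like nuclei, however, held little Gria4. Against inhibitory neuron-like nuclei of the same mouse Gria4 stood at 9.09 to 25.7%, and the summed level of 12 inhibitory neuron markers at 9.86 to 15.0%. The part of RNA of other cells in this Gria4 level was not tested.

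Between genes, levels compare only per length, and the order depended on the length used. Per kb of gene span in granule-like nuclei, Gria2 held 16.7 CPM, Grin1 12.5, Gria1 9.83, Grin2a 8.01, Grin2b 4.22, Gria3 2.90, Gria4 0.403 and Grin3a 0.192. Per kb of exon, Gria1 led there with 519 CPM, followed by Grin2a with 191 and Gria2 with 130, and Grin1 held 36.0. In astrocyte-like nuclei Grin2c (13.8) and Gria2 (12.8) led in CPM per kb of span, while per kb of exon Gria2 held 100.3, Gria1 50.2 and Grin2c 49.5. In oligodendrocyte precursor-like nuclei Gria2 led with 10.8 CPM per kb of span, followed by Grin3a with 3.72 and Gria4 with 3.16, while per kb of exon Gria4 led with 189 and Gria2 held 84.2. Since the use of intronic reads is not given, neither length is settled as the scale.

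Within the inhibitory class the subunit makeup differed between clusters. No cluster was named for parvalbumin interneurons. The leading genes of the somatostatin cluster, with Sst at the top, include Kcnc2 and Btbd11, which are on the parvalbumin marker list. Whether that cluster pools both kinds was not tested, so its levels are those of the cluster. Somatostatin interneuron-like nuclei held 3834 ± 469 CPM of Gria1, 1121 ± 132 of Gria3, 2312 ± 359 of Gria4 and 404 ± 79.2 of Grin3a (n = 13 for all inhibitory clusters). Lamp5 interneuron-like nuclei held Grin2a at 3674 ± 486 CPM, against 723 ± 176 in the somatostatin cluster and 630 ± 99.1 in the Vip cluster, and the lowest Lamp5 value, 2776, lay above the highest of the others, 1080. Vip interneuron-like nuclei held the least Gria1 (1202 ± 163 CPM) and Gria3 (210 ± 61.7) and the most Grin2b (1749 ± 104). Granule-like nuclei formed 4 clusters, numbered 0, 1, 4 and 8. Their mean Gria1 levels were 2915, 3748, 2217 and 3132 CPM and their Grin2a levels 3075, 4132, 2586 and 3398.

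The log2 ratio of 2 subunits in the same nuclei does not depend on the scaling of a library. It can depend on gene length and on depth per nucleus. Gria1 spans 318.9 kb and Gria2 121.4 kb, and fold changes with age rose with span (Spearman's rho 0.468 over all genes in granule-like nuclei). The part of length or depth in the ratios was not tested. The ratio of Gria1 to Gria2 was 1.46 in inhibitory neuron-like nuclei, 0.77 in CA1-like, 0.62 in granule-like and 0.40 in CA3-like nuclei on average over 13 mice, and below 0 in all 4 glial classes: oligodendrocyte precursor-like (-3.17), astrocyte-like (-2.42), oligodendrocyte-like (-1.23) and microglia-like nuclei (-0.91). In granule-like nuclei it was 0.35 ± 0.08 in young AL (SD, n = 3), 0.71 ± 0.07 in old AL (n = 3), 0.73 ± 0.17 in acute DR (n = 3) and 0.69 ± 0.16 in long-term DR (n = 4). All 10 old mice lay above the 3 young mice, since the young values ran from 0.27 to 0.43 and the lowest old value was 0.50. In CA1-like nuclei it was 0.51 ± 0.08 in young AL, 0.76 ± 0.15 in old AL, 0.91 ± 0.19 in acute DR and 0.86 ± 0.13 in long-term DR. CA3-like nuclei held 0.07 ± 0.10, 0.34 ± 0.23, 0.53 ± 0.17 and 0.59 ± 0.18 in the same order. The ratio of Grin2a to Grin2b in granule-like nuclei was 0.73 ± 0.06 in young AL, 0.89 ± 0.05 in old AL, 0.78 ± 0.07 in acute DR and 0.85 ± 0.04 in long-term DR.

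Both ratios were compared over the 4 groups in 8 classes, which gave 16 exact permutation tests of the spread between group means, which take no direction, over 1201200 assignments. The exact p was 0.0285 for Gria1 to Gria2 in granule-like, 0.0324 in CA1-like, 0.0239 in CA3-like and 0.0307 in oligodendrocyte-like nuclei. For Grin2a to Grin2b it was 0.021 in granule-like nuclei and 0.0119 in the oligodendrocyte-like class. After adjustment over the 16 tests all 6 stood at 0.0863 and none passed 0.05. A missed threshold does not show that the groups were alike.

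**Figure D2:**
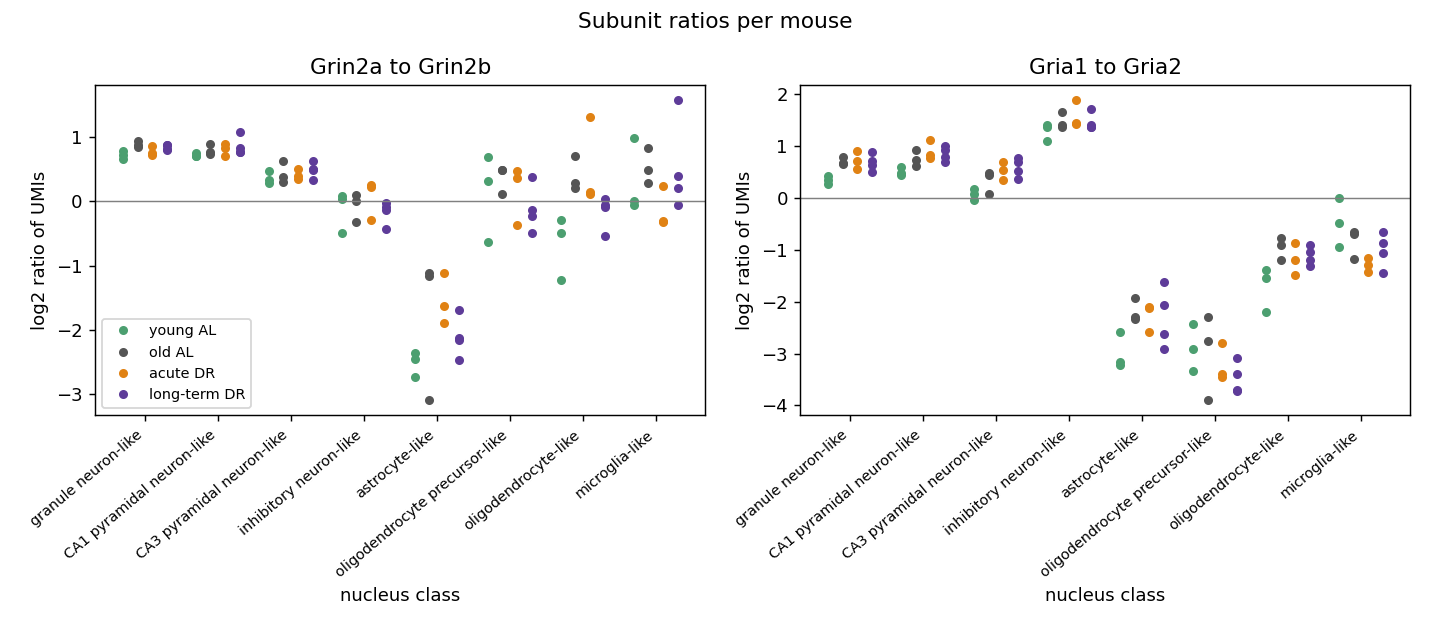
Log2 ratio of UMIs of Grin2a to Grin2b (left) and of Gria1 to Gria2 (right) in 8 classes, 1 point per mouse, coloured by group. In granule-like nuclei the Gria1 to Gria2 ratios of the young mice (0.27 to 0.43) lie below those of all old mice, and the mean of this ratio lies below 0 in the 4 glial classes drawn (astrocyte-like, precursor-like, oligodendrocyte-like and microglia-like). Gria1 and Gria2 differ in gene length, whose part in the ratio was not tested.

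Ageing was compared as old AL minus young AL. Of 81 pairs of a gene and a class in the 9 classes with enough sums, 70 passed the filter on low counts. The summed counts were tested with edgeR's quasi-likelihood test over all genes, with Benjamini-Hochberg adjustment within class and contrast and a call at an adjusted p below 0.05. The test called 7 pairs, all higher in old mice: Gria1 and Grin2a in granule-like nuclei, Gria1, Gria3 and Grin2a in oligodendrocyte-like nuclei, and Gria3 and Grin3a in oligodendrocyte precursor-like nuclei. Over all genes and the 9 classes 1.92% of pairs were called. Of the 70 pairs, 57 had a log2 fold change above 0, against 47.5% over all genes and classes, and 23 had an unadjusted p below 0.05, against 18.8%.

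In granule-like nuclei Gria1 stood at 2615, 2400 and 2703 CPM in the young AL mice and at 3339, 3439 and 3197 in the old AL mice. The groups did not overlap, and the acute DR mice (3405, 3574 and 3072) and long-term DR mice (3333, 3110, 3601 and 2978) also lay above all young mice. The log2 fold change of Gria1 with age was 0.53 (SE 0.13, adjusted p = 0.0475, edgeR). Grin2a stood at 2905, 3088 and 3113 CPM in young AL and at 3660, 3798 and 3551 in old AL, again without overlap, with a log2 fold change of 0.44 (SE 0.11, adjusted p = 0.0476, edgeR). Gria2 stood at 2046, 1985 and 2004 CPM in young AL and 2092, 1990 and 2033 in old AL, overlapping in CPM, with a log2 fold change of 0.19 (edgeR adjusted p = 0.24).

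These fold changes rest on TMM factors, and the printed CPM do not. With total UMIs as the scale the ageing median of all genes fell by 0.165 on the log2 scale in granule-like nuclei and fell by 0.104 in inhibitory neuron-like nuclei, and Gria1 and Grin2a in granule-like nuclei stood at 0.37 and 0.27 (edgeR adjusted p = 0.0480 and 0.0654). Gria4 (log2 fold change 0.50, edgeR adjusted p = 0.0545), Gria3 (0.40, 0.0636) and Grin2b (0.28, 0.122) missed the threshold. The share of all genes called in granule-like nuclei was 3.37%, against 2 of 9 members. On the TMM scale, old and young did not overlap, with old higher, for 6 of the 9 members, Gria2 among them, and for 17.4% of all genes. The members' median log2 fold change was 0.28, against -0.04 for all genes.

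**Figure D3:**
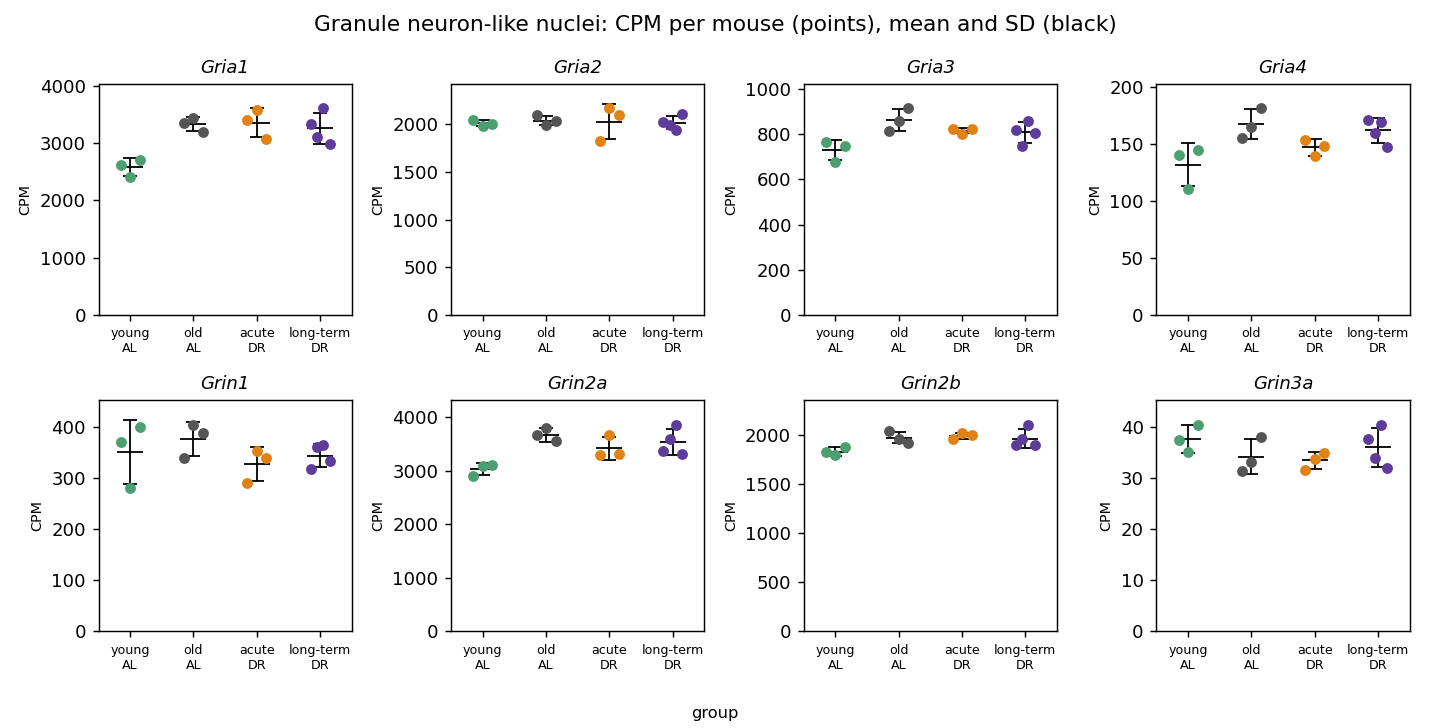
CPM in granule neuron-like nuclei for 8 of the genes by group (young AL, old AL, acute DR, long-term DR), 1 point per mouse with mean and SD in black, on axes from 0. Gria1 and Grin2a are lower in the 3 young AL mice than in every old AL mouse, Gria2 is level, and Grin2c, with 104 UMIs over all granule-like nuclei and at most 19 in a mouse, is not drawn.

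Both granule calls stood close to the threshold. The Gria1 call was kept in 3 of 13 fits that each left out 1 mouse (log2 fold change 0.43 to 0.59) and was lost without any old AL or acute DR mouse, without young AL 2 or 3 and without long-term DR 1 or 4. The Grin2a call was kept in 2 of 13 (0.40 to 0.48) and was lost in the same fits and without long-term DR 2. Granule-like nuclei of old AL mice were deeper than those of young AL mice and fell into the same clusters in other shares. Median UMIs per granule-like nucleus ran from 3875.5 to 6583 in young AL and from 7094 to 12799 in old AL. Cluster 0 held 14.9 to 29.6% of granule-like nuclei in young AL and 42.9 to 52.9% in old AL, and cluster 1 held 51.8 to 65.7% and 19 to 35.2%. Both calls were also lost with RLE factors, in thinned nuclei, with only the 2 groups compared and without the libraries numbered 1, where the log2 fold change ran from 0.47 to 0.57 for Gria1 and from 0.35 to 0.44 for Grin2a. Over all 14 alternatives to the main fit the Gria1 call was lost in 6 and the Grin2a call in 8. Fitted apart, clusters 0, 1, 4 and 8 gave 3, 3, 0 and 2 called members, where 3.04%, 3.31%, 3.06% and 3.1% of all genes were called.

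Fold changes with age rose with gene length over all genes, and 7 of the members are long. Spearman's rho between a gene's log2 fold change and its span was 0.468 in granule-like nuclei (across 16899 genes, which are not independent replicates), 0.489 in oligodendrocyte-like and 0.476 in precursor-like nuclei. With that trend removed, the members' median log2 fold change with age fell from 0.28 to 0.11 in granule-like nuclei, from 0.84 to 0.57 in oligodendrocyte-like nuclei and from 0.15 to 0.01 in precursor-like nuclei. Gria1 in granule-like nuclei then stood at 0.24 (edgeR adjusted p = 0.164) and Grin2a at 0.11 (0.371). With the median UMIs per nucleus as a covariate none of the 7 calls was kept. Gria1 stood at 0.29 and Grin2a at 0.29 in granule-like nuclei, with adjusted p-values of 0.646 and 0.624 in edgeR. Depth and age cannot be told apart there, since the 3 young AL and the 3 old AL mice did not overlap in depth.

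**Figure D4:**
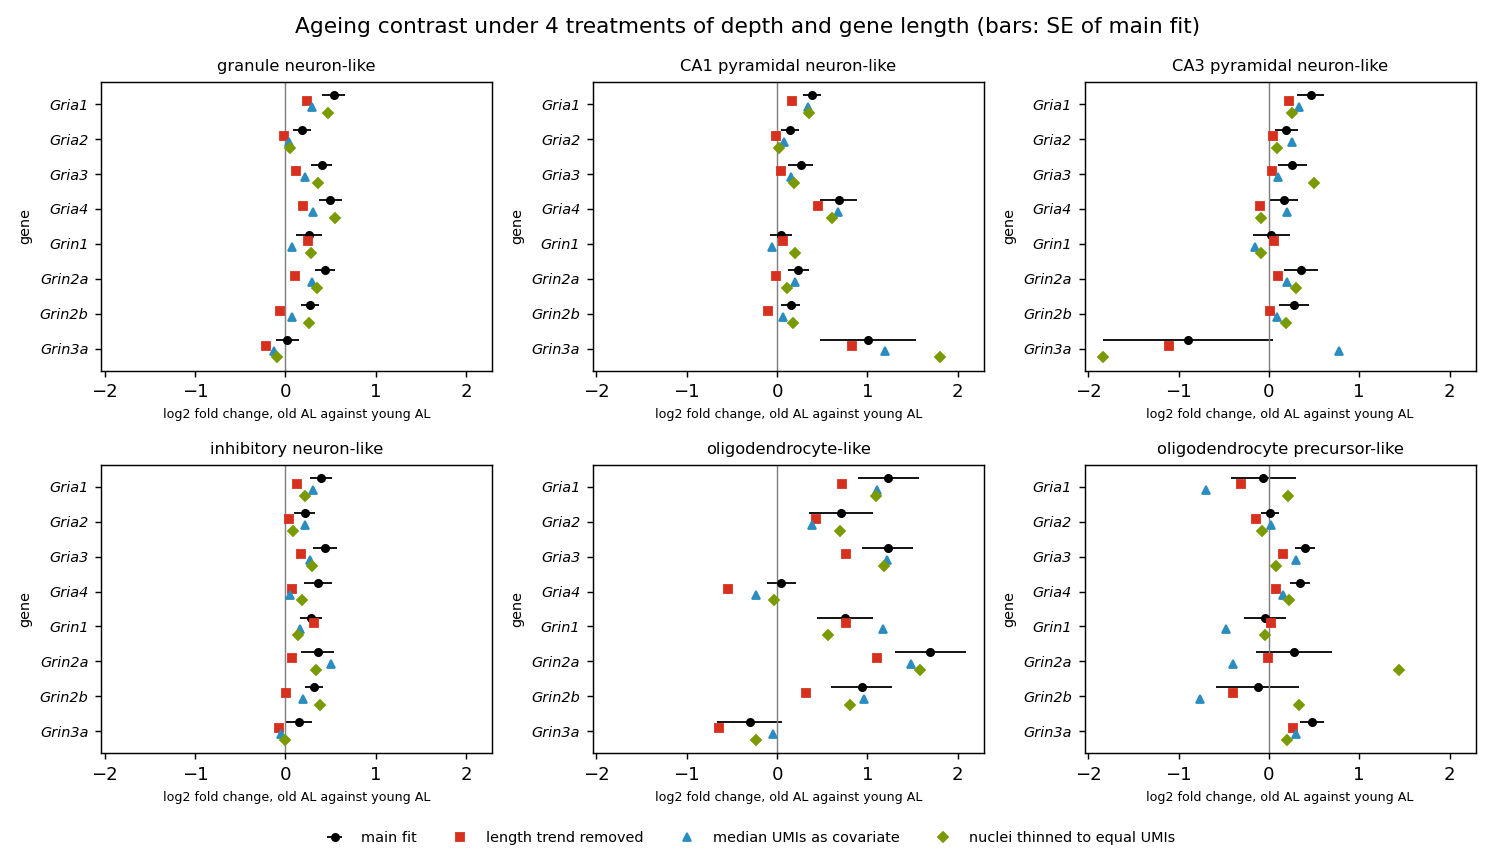
Log2 fold change, old AL against young AL, of 8 of the genes in 6 classes under the main edgeR fit (black, bars are SE) and with the gene length trend removed (red), median UMIs as a covariate (blue) or nuclei thinned to equal UMIs (green). In granule-like nuclei Gria1 falls from 0.53 to 0.24 with the length trend removed, and the oligodendrocyte-like values of Gria1, Gria3 and Grin2a stay above 0 in all 4.

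The called pairs of largest fold change were those of oligodendrocyte-like nuclei, on low levels. Grin2a stood at 11.3, 58.6 and 58.6 CPM in young AL and at 178, 203 and 144 in old AL, with no overlap and a log2 fold change of 1.70 (SE 0.39, adjusted p = 0.0245, edgeR). Gria1 stood at 22.6, 84.0 and 80.7 CPM in young AL and 171, 219 and 138 in old AL (log2 fold change 1.23, SE 0.34, edgeR adjusted p = 0.0438). Gria3 stood at 33.9, 43.1 and 37.5 CPM and at 71.8, 109 and 82.2 (1.23, SE 0.28, edgeR adjusted p = 0.0100). The first young AL value of each rests on 47 nuclei, with 1 UMI of Grin2a, 2 of Gria1 and 3 of Gria3. In this class 7.84% of all genes were called with age, against 3 of 8 members tested, and 6 of 8 members were higher without overlap, against 14.2% of all genes.

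Some of the marker sets of other cells also differed between young and old AL in oligodendrocyte-like nuclei. The 10 neuronal genes summed to 849 to 1276 CPM in young AL, 1813 to 2524 in old AL, 1951 to 2137 in acute DR and 1114 to 2677 in long-term DR. All 10 had UMIs, 2 were called higher with age (Celf2, log2 fold change 1.86, and Syt1, 1.43), and the median of the 10 was 0.48. The 12 inhibitory neuron markers, all with UMIs, summed to 2058 to 3066 CPM in young AL and 2331 to 2824 in old AL, and as a share of their level in inhibitory neuron-like nuclei to 13.6 to 15.0% and 11.8 to 13.5%. The 12 granule neuron markers, also all with UMIs, summed to 3830 to 4702 CPM in young AL and 4880 to 5133 in old AL without overlap. They stood at 62.5 to 69.5% and 63.8 to 64.8% of their granule-like level. At such shares, RNA of granule neurons cannot be told apart from RNA of the oligodendrocyte-like nuclei themselves. The 12 CA1 markers summed to 3754 to 4774 CPM in young AL and 4541 to 5886 in old AL, with overlap. The 12 oligodendrocyte precursor markers summed to 155 to 203 CPM in young AL and 226 to 228 in old AL, without overlap. Median UMIs per nucleus ran from 1182 to 1661 in young AL and from 1988 to 3169 in old AL. The part of RNA of other cells or of depth in the 3 calls was not tested. Gria1 in oligodendrocyte-like nuclei was lost in 8 of 13 fits that left out a mouse, Grin2a in 4 and Gria3 in 3, and all 3 were lost without old AL 2, young AL 2 or young AL 3. Without old AL 1 the Gria1 and Grin2a calls were also lost, and that of Gria1 also without young AL 1, acute DR 1 or 3, or long-term DR 2. With doublets retained or without the libraries numbered 1 none of the 3 passed, and Grin2a alone passed in thinned nuclei and with the length trend removed. Over all 14 alternatives the Gria1 call was lost in 6, the Gria3 call in 5 and the Grin2a call in 4. The log2 fold changes stayed above 0 in them, at 0.71 to 1.89 for Gria1, 0.76 to 2.13 for Gria3 and 1.10 to 2.08 for Grin2a.

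**Figure D5:**
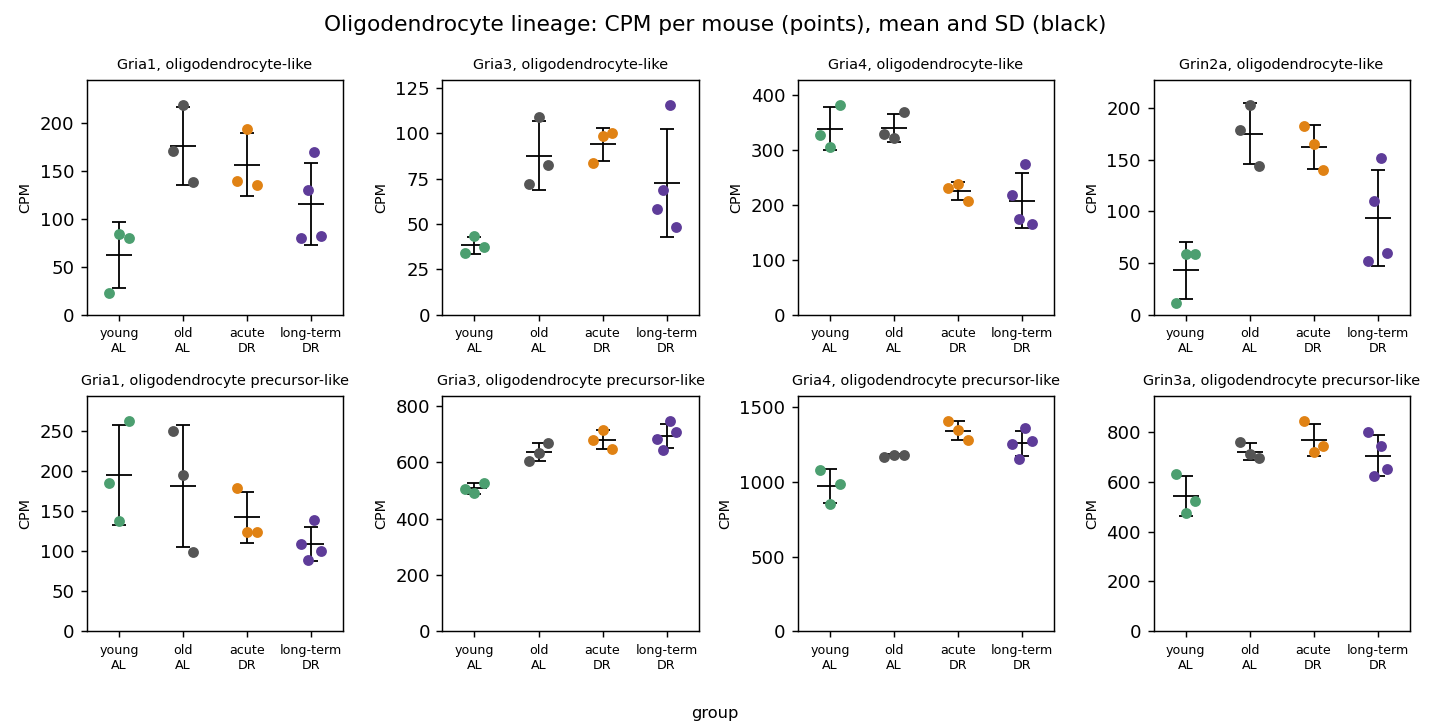
CPM by group in oligodendrocyte-like (top) and oligodendrocyte precursor-like (bottom) nuclei for selected genes, 1 point per mouse with mean and SD in black. Gria4 in oligodendrocyte-like nuclei lies between 166 and 274 CPM in restricted mice and between 306 and 382 in both AL groups, while in precursor-like nuclei its restricted values (1153 to 1404) span those of old AL (1169 to 1183).

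Oligodendrocyte precursors receive glutamatergic input from neurons. Gria3 in precursor-like nuclei stood at 507, 491 and 528 CPM in young AL and at 606, 635 and 670 in old AL, without overlap (log2 fold change 0.40, SE 0.11, edgeR adjusted p = 0.0465). Grin3a stood at 632, 475 and 523 CPM in young AL and at 757, 711 and 694 in old AL, also without overlap (0.48, SE 0.13, edgeR adjusted p = 0.0456). Gria4, at 850 to 1082 CPM in young AL and 1169 to 1183 in old AL without overlap, missed the threshold (0.35, edgeR adjusted p = 0.0838). Of all genes in this class 2.63% were called, against 2 of 8 members, and 12.1% were higher without overlap, against 3 of 8. In the same nuclei the 12 inhibitory neuron markers summed to 6709 to 8135 CPM in young AL and 8797 to 9199 in old AL, and the 12 CA1 markers to 2111 to 2744 and 2831 to 2921, both without overlap, while the 10 neuronal genes summed to 2885 to 3621 and 2663 to 3195. The inhibitory neuron markers stood at 39.9 to 44.2% of their own class's level in young AL and 43.9 to 44.4% in old AL. At such shares, RNA of interneurons cannot be told apart from RNA of the precursor-like nuclei themselves. Median UMIs per nucleus ran from 1922.5 to 2924.5 in young AL and from 3421 to 6119 in old AL. The part of RNA of other cells or of depth in these calls was not tested. In nuclei thinned to 1000 UMIs the fold changes of Gria3 and Grin3a were 0.08 and 0.20, with edgeR adjusted p-values of 0.831 and 0.556. Both calls were lost with doublets retained and with the length trend removed, and that of Gria3 also with RLE factors, with only the 2 groups compared and without the libraries numbered 1. Over all 14 alternatives the Gria3 call was lost in 8 and the Grin3a call in 5. Each was lost when any old AL mouse was left out, and without young AL 2 or 3, acute DR 3 or long-term DR 4.

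No member was called by edgeR with age in the other 6 classes. The share of all genes called there was 1.07% in microglia-like, 0.383% in astrocyte-like and 0.0% in CA1-like, CA3-like, inhibitory neuron-like and endothelial cell-like nuclei. An unadjusted p below 0.05 was found for 5 of 8 members in inhibitory neuron-like (19.8% of all genes), 2 of 8 in CA1-like (18.2%), 2 of 9 in astrocyte-like (14.5%) and 1 of 8 in CA3-like nuclei (13.6%), and for none in the other two. In CA1-like nuclei all 8 members tested had a log2 fold change above 0, as did 45.7% of all genes, and 7 were higher without overlap between the groups, against 12.7% of all genes. Gria1 there was 0.39 (edgeR adjusted p = 0.128) and Gria4 0.68 (0.153). In inhibitory neuron-like nuclei all 8 members tested were above 0, against 46.2% of all genes, and 6 were higher without overlap, against 12.5%. Gria3 was 0.44 (0.134) and Gria1 0.40 (0.134) by edgeR. In astrocyte-like nuclei, where 9.84% of all genes and 1 of 9 members were higher without overlap, that member was Gria1, at 156 to 203 CPM in young AL and 292 to 453 in old AL, which missed the threshold (1.02, edgeR adjusted p = 0.0674). There the 12 inhibitory neuron markers summed to 535.5 to 674.5 CPM in young AL and 780.2 to 962 in old AL, and the 12 granule neuron markers to 2696 to 3165 and 3579 to 3976, both without overlap, and their part in the value was not tested. Grin2c in astrocyte-like nuclei, at 274.5 to 295.5 CPM in young AL and 220.5 to 308.9 in old AL, overlapped. Whether an effect differed between granule-like nuclei and another class was tested with limma in 244 tests of the members, of which none was called. The share of all genes called in these tests is not given here, so the absence of calls is not read as particular to the members. The smallest adjusted p belonged to Grin2a with age in granule-like against oligodendrocyte-like nuclei (difference -1.93, limma adjusted p = 0.44).

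Restriction was compared with old AL, and both restricted groups share these 3 control mice with each other and with the ageing contrast. Gria4 in oligodendrocyte-like nuclei was the only member called in either. It stood at 330, 322 and 369 CPM in old AL, at 231, 238 and 208 in acute DR and at 219, 175, 274 and 166 in long-term DR. No restricted mouse reached the lowest old AL value, and the young AL mice (328, 306 and 382) lay with old AL. The log2 fold change was -0.74 under long-term restriction (SE 0.15, edgeR adjusted p = 0.0154) and -0.67 under acute restriction (SE 0.16, edgeR adjusted p = 0.0199). In this class 0.396% of all genes were called under long-term and 2.0% under acute restriction, against 1 of 8 members in each. Groups did not overlap, with old AL higher, for 5.0% of all genes under long-term and 10.2% under acute restriction, and for 1 of 8 members in each. With age the gene did not change by the test (log2 fold change 0.05, edgeR adjusted p = 0.909).

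Markers of oligodendrocyte precursors in oligodendrocyte-like nuclei were lower in both restricted groups than in old AL, and lower in young AL too, where Gria4 was not. Summed over 12 markers, all with UMIs, their level in oligodendrocyte-like nuclei was 226 to 228 CPM in old AL, 137 to 159 in acute DR, 135 to 188 in long-term DR and 155 to 203 in young AL, which is 0.65 to 1.13% of their level in precursor-like nuclei of the same mouse. Gria4 in oligodendrocyte-like nuclei stood at a median of 20.2% and at most 38.8% of its precursor-like level. Of its inhibitory neuron-like level it stood at a median of 12.7% (9.09 to 25.7%), and the 12 inhibitory neuron markers at 12.35% (9.86 to 15.0%) of theirs. The 12 inhibitory neuron markers summed to 2331 to 2824 CPM in old AL, 2109 to 2275 in acute DR and 2375 to 2813 in long-term DR. The 12 granule neuron markers summed to 4880 to 5133, 4692 to 4755 and 4408 to 5029 CPM in the same order, and the 12 CA1 markers to 4541 to 5886, 3907 to 4490 and 4547 to 5482. All of these sets were lower without overlap in acute DR and overlapped old AL in long-term DR. Median UMIs per nucleus ran from 1988 to 3169 in old AL, from 1577 to 1889 in acute DR and from 1673 to 2299.5 in long-term DR. The part of RNA of precursors, of other cells or of depth in the fall of Gria4 was not tested. Both calls were lost in thinned nuclei (-0.71 and -0.57), with median UMIs as a covariate (-0.65 and -0.49), with doublets retained (-0.65 and -0.62), with the length trend removed and without the libraries numbered 1. The long-term call was also lost with only the groups compared, and without old AL 2 or 4 or long-term DR 2 or 4 (-0.90 to -0.61 over the 13 fits that left out a mouse), and the acute call without any old AL mouse or acute DR 2 or 3 (-0.72 to -0.57). In precursor-like nuclei Gria4 stood at 1277 to 1404 CPM in acute DR and 1153 to 1357 in long-term DR, against 1169 to 1183 in old AL, and was not called by edgeR, as 0.161% and 0.151% of all genes in this class were under long-term and acute restriction.

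The other members did not pass the test under restriction. Over the 70 pairs, 8 had an unadjusted p below 0.05 under long-term restriction and 2 under acute restriction, against 4.94% and 5.46% of all genes over the classes, of which 0.0665% and 0.269% were called. In oligodendrocyte-like nuclei Grin2a stood at 182, 165 and 140 CPM in acute DR and at 52.3, 110, 152 and 59.4 in long-term DR, against 178, 203 and 144 in old AL, with a log2 fold change under long-term restriction of -0.83 (edgeR adjusted p = 0.387). In granule-like nuclei the median log2 fold change of the members was -0.01 under long-term and -0.03 under acute restriction, and none of the 9 was called, as none of 16909 genes was (0.0%). Long-term against acute restriction gave no called pair by edgeR, with 3 of 70 at an unadjusted p below 0.05 (2.97% over all genes), and none by DESeq2. Over all genes and classes 0.015% were called.

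Partner genes of the receptors were read from lists, in the main edgeR fit only. How their calls depend on depth, gene length or single mice is not given. In granule-like nuclei the edgeR adjusted p was 0.0260 for Shisa6 and 0.0443 to 0.0477 for the other called genes, close to the threshold. AMPA auxiliary and biogenesis genes, which traffic the receptor and slow its gating, had 2 of 18 called with age in granule-like nuclei (3.37% of all genes), both higher: Shisa6 (log2 fold change 0.63) and Cacng2, which encodes stargazin (0.55). In oligodendrocyte-like nuclei (7.84% of all genes called) 2 of the 15 tested were higher, Shisa9 (1.26) and Shisa6 (1.19). Of 24 scaffold and trafficking genes, 3 of the 23 tested in granule-like nuclei were higher: Dlgap4 (0.51), Dlgap1 (0.50) and Dlgap2 (0.47), which encode scaffold proteins of the postsynaptic density. In oligodendrocyte-like nuclei 4 of 22 were higher, among them Lrrc7 (1.79), Grip1 (1.72) and Dlgap1 (1.29), and Lrrtm1 was lower (-1.40). In precursor-like nuclei (2.63% of all genes called) 2 of 22 were higher, Neto1 (0.48) and Dlg2 (0.39), and in astrocyte-like nuclei (0.383%) 1 of 23, Dlg2 (1.48). Of the 3 listed genes of the ADAR family, Adar was higher in granule-like nuclei (0.47). Adarb2, which is also one of the inhibitory neuron markers used above, was higher in oligodendrocyte-like (0.74) and precursor-like nuclei (0.39). Adarb1, which encodes the enzyme that edits the Q/R site, held 125 ± 11.9 CPM in inhibitory neuron-like, 123 ± 6.62 in granule-like and 54.8 ± 5.34 in CA1-like nuclei (n = 13) and was called in no class. In the other classes and in the contrasts with restriction none of these lists had a call by edgeR.

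The auxiliary genes also varied by class. Cacng4 held 712 ± 138 CPM in oligodendrocyte precursor-like nuclei and 0.491 ± 0.234 in granule-like nuclei (n = 13). It is one of the markers from which the precursor-like class was named, so its high level there follows from the naming. Of the named classes Shisa6 was highest in CA3-like nuclei (1458 ± 397 CPM, n = 13), followed by hilar mossy cell-like (1320 ± 388, n = 8) and CA1-like nuclei (1055 ± 128, n = 13). Shisa9 was highest in granule-like nuclei, at 835 ± 95.1 CPM against 327 ± 41.4 in inhibitory neuron-like nuclei (n = 13).

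Over the 14 classes, the gene with a pattern most like each member was found by Pearson's r of mean log2 CPM among 9419 genes, as a description, since the classes share libraries and neuronal RNA. Gria1 was most like Grin1 (r 0.965), Dbn1 (0.962) and D130043K22Rik (0.962), and Gria2 most like Apba2 (0.977), Astn1 (0.954) and Tspoap1 (0.937). Gria3 was most like Rbfox1 (0.982), Tub (0.963) and Lrfn2 (0.961). Gria4 had looser matches, in Aff2 (0.906), Dpysl5 (0.884) and Lmbr1 (0.851). Grin1 was most like Dlgap3 (0.989), Gm16105 (0.989) and Celf5 (0.986). Grin2a and Grin2b both had Rasgef1a (0.983 and 0.967) and Camk2a (0.983 and 0.966) at the top, followed by Epha6 (0.983) for Grin2a and Gm1043 (0.966) for Grin2b. Grin2c was most like Gm35552 (0.978), 2900052N01Rik (0.974) and the astrocyte gene Etnppl (0.972). Grin3a was most like Wnt7a (0.862), Lhfpl3 (0.824) and Spred3 (0.815).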

How the data were processed

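The files as deposited hold raw UMI counts for each gene in each barcode, made with Cell Ranger 4.0.0 on mm10 per the submitters' processing notes. Barcodes passed (105427) with 500 or more genes and no more than 5% of UMIs mitochondrial, and 7386 were removed as doublets by Scrublet score, 0.8% per 1000 barcodes and library. Clustering was run on all passed barcodes, with the doublets still among them. It used 2000 variable genes, without the 9 receptor genes, in 30 components with 20 neighbours and Leiden resolution 1 (scanpy 1.11.5, leidenalg 0.10.2, Python 3.11.15). A cluster was named from the marker list of highest mean log2 fold, with at least 3 raised markers and a mean of at least 1. Of the 15 unnamed clusters, 11 met this for no list and 4 were mostly doublets.

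Counts were summed per mouse and class. Sums of at least 20 nuclei, in classes with at least 2 mice per group (9 classes), were tested with edgeR 4.0.16 in R 4.3.3 (TMM, filterByExpr, robust quasi-likelihood) over all 13 libraries. Benjamini-Hochberg adjustment ran within class and contrast. Class differences used limma 3.58.1. Subunit ratios added 0.5 UMIs and were tested by exact permutation. Tested on simulated data with 2-fold changes in 200 genes, the ageing contrast recovered 53% in granule-like nuclei (16818 genes) and 65% in oligodendrocyte-like nuclei (11236 genes). Beside the 106 and 130 genes recovered there were 1 and 10 false calls. The simulation gave all genes of a class a common dispersion. Its changes were larger than those called in granule-like nuclei, so the recovery does not hold for them.

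Named are all 9 members, at most the 4 called genes of largest fold per list, class and contrast, and the 3 genes most like each member. Gene spans come from the GENCODE annotation of GRCm38. The members and lists were chosen with earlier results of these data known. Alternatives were other scaling (RLE, total UMIs), DESeq2 1.42.0, no low-count filter, a term for libraries numbered 1, these libraries left out, and the replicate number as a block. Others were depth and length corrections, thinned nuclei, other nucleus filters, clustering with the receptor genes, only the groups compared, and each mouse left out.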

Additional observations from a re-analysis of the deposited data

Results flagged for a closer look

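Of 63 groups of 4 mice tested for a sample that stands apart, 1 was flagged, where chance flags about 1 in 20. Gria2 in granule neuron-like nuclei was low in long-term DR 2, at 10.91 log2 CPM against 11.06 in each of the other 3 mice of the group, so that its gap to the nearest was 0.99 of the group's range. The other 3 values nearly coincide.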

How the results depend on the processing

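The 7 calls with age became 3 with total UMI scaling (chosen after seeing the data), 4 with RLE factors, 17 with DESeq2, 14 with a term for libraries numbered 1, 0 with median UMIs as a covariate, 2 with the length trend removed, 4 in thinned nuclei and 3 with doublets retained, and ran from 0 to 11 with 1 mouse left out (0 without old AL 2, young AL 2 or young AL 3, and 11 without long-term DR 3). The share of all genes called with age, 1.92% in the reported fit, moved too: 1.5% with total UMI scaling, 1.74% with RLE factors, 5.2% with DESeq2, 8.03% with the term, 0.0397% with the covariate, 0.744% with the trend removed, 2.14% in thinned nuclei, 1.68% with doublets retained, and 0.436%, 0.24%, 1.35% and 2.75% without old AL 2, young AL 2, young AL 3 and long-term DR 3. Without the libraries numbered 1 there were 6, of which 1 was shared (7.66% of all genes). No filter on low counts gave 9 (1.43%), at least 1000 genes per nucleus 6 (1.27%), and only the groups compared 7 (1.37%), of which 4 were shared. The single long-term call became 4 with no filter (0.133% of all genes, against 0.0665%) and 2 without the libraries numbered 1 (0.169%), neither of them the reported pair. It became 0 with the covariate (0.0247%), the length trend removed (0.0558%), only the groups compared (0.0998%) or thinned nuclei (0.0561%). With 1 mouse left out it ran from 0 to 2, where 0.0104% to 0.194% of all genes were called. The single acute call became 0 without the libraries numbered 1 (0.465% of all genes, against 0.269%), with the covariate (0.0451%), with the length trend removed (0.268%) and in thinned nuclei (0.288%). With 1 mouse left out it ran from 0 to 1, where 0.102% to 0.324% of all genes were called. Doublets retained gave 1 call in each restriction contrast, but for Gria1 in endothelial cell-like nuclei, where 0.0457% of all genes over the classes were called under long-term and 0.204% under acute restriction. Nuclei of that class carried neuronal RNA, whose part in these calls was not tested. Long-term against acute restriction became 1 without the libraries numbered 1 (0.122% of all genes, against 0.015%). Granule-like cluster 4 alone gave 0 of the 2 granule calls. Without the libraries numbered 1 the Grin2a to Grin2b ratio passed in 1 class (0 otherwise). No called pair changed sign, and 7 of 9 members were highest, among the named classes, in a neuronal class under every setting tried. Unless the setting itself removes samples, the cause was not tested.

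With the replicate number as a block, there were 16 calls with age, 5 under long-term restriction, 1 under acute restriction and 1 for long-term against acute, where 6.46%, 0.274%, 0.496% and 0.0504% of all genes were called. Libraries numbered 1 deviated together (r 0.364 to 0.782 in granule-like nuclei), the other numbers did not all exceed 0.1, and 5 of 13 libraries correlated best with their own number, so the numbers were not taken as a pairing. Depth limits the glial values, since young AL 1 holds 47 oligodendrocyte-like nuclei.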
